A study of Mus musculus with 4 samples.

Results

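Alveolar type 1 (AT1) cells are represented here by 10 marker genes, *Ager*, *Hopx*, *Pdpn*, *Aqp5*, *Emp2*, *Akap5*, *Rtkn2*, *Spock2*, *Icam1* and *Clic5*, which were taken by gene symbol from the 45706 genes counted in each lung. RNA from the left lung lobe was sequenced from 2 wild-type and 2 Myh10L458R/L458R C57BL/6 mouse embryos at embryonic day 17, when the lung enters the saccular stage. The mutant embryos carried the L458R substitution of MYH10, the heavy chain of nonmuscle myosin II-B, on both alleles and in all of their cells, and no embryo was treated. The comparison asked which transcripts differ between the lungs of these genotypes.

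AT1 cells are the thin, flat epithelial cells that cover most of the gas-exchange surface. They arise from distal epithelial progenitors together with the cuboidal alveolar type 2 (AT2) cells, which make surfactant, and they flatten and spread before birth. Each of the 10 genes is widely used to mark AT1 cells in mouse lung, although several are also expressed elsewhere, such as *Pdpn* in lymphatic endothelium and mesothelium, *Icam1* in endothelium and leukocytes, and *Hopx* in heart muscle.

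After scaling of the counts for library size, all 10 AT1 markers had lower levels in the mutant lungs. Mean levels lay between 42.2% (*Aqp5*) and 77.1% (*Pdpn*) of wild-type. In the edgeR quasi-likelihood test, 10 of 10 markers were lower at an adjusted p under 0.05 and 0 higher, against 1.34% lower and 0.298% higher among the 18763 genes tested. The log2 fold changes of the markers, mutant over wild-type, lay between -1.23 and -0.37 with a median of -0.47, against a median of 0.00 over all tested genes. Both mutant lungs lay below both wild-type lungs for 10 of 10 markers, an arrangement found in 24.3% of all tested genes. The Wald test of DESeq2 called 7 of 10 markers lower, against 2.58% of the genes to which it gave an adjusted p, and it did not call *Hopx* (adjusted p = 0.232), *Aqp5* (0.0531) or *Clic5* (0.0571). In whole lung tissue, fewer AT1 cells and less RNA per AT1 cell cannot be told apart.

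The lungs had between 19116971 and 32055306 reads counted on genes, and the markers had between 238 and 19891 reads in a lung. Levels below are CPM, read counts scaled to a common total after TMM correction of the library totals for composition. *Myh10* itself had 505 and 504 CPM in wild-type lungs and 539 and 513 CPM in mutant lungs (log2 fold change, mutant over wild-type, 0.06, adjusted p = 0.662), so its count does not check the genotype of a point mutation. *Xist* was at 3916 CPM in wild-type lung 1 and 4457 CPM in mutant lung 2 and at 1.84 and 4.10 CPM in the other lungs, where the Y-linked gene *Ddx3y* was at 182 and 198 CPM. Each genotype thus had 1 female and 1 male lung.

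**Figure D1:**
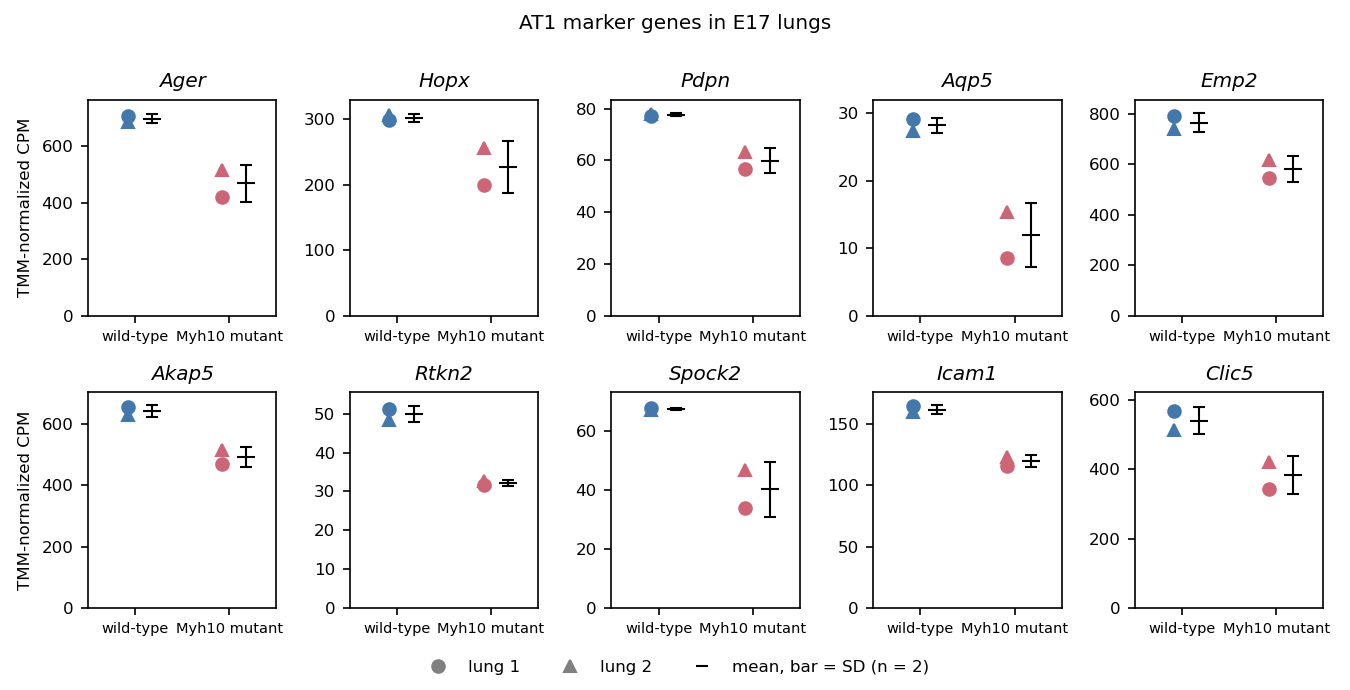
TMM-normalized CPM (vertical axes, from 0) of the 10 AT1 markers in wild-type and Myh10L458R/L458R lungs, with circles for lung 1, triangles for lung 2, and the mean and SD of 2 lungs beside them. In every panel both mutant lungs lie below both wild-type lungs, and mutant lung 1 lies below mutant lung 2.

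Among the markers at the cell surface, *Ager*, which encodes the immunoglobulin superfamily receptor RAGE of the basal AT1 membrane, had 708 and 686 CPM in wild-type lungs and 421 and 515 CPM in mutant lungs. Its log2 fold change was -0.58 (SE, its standard error, 0.09, adjusted p = 0.00997). *Icam1*, an adhesion receptor for leukocyte integrins, had 165 and 160 CPM in wild-type and 116 and 123 CPM in mutant lungs. This was the change with the smallest standard error of the list, a log2 fold change of -0.44 (SE 0.05, adjusted p = 0.00431). *Pdpn*, which encodes the mucin-type glycoprotein podoplanin (T1alpha), had 77.3 and 78.1 CPM in wild-type and 56.6 and 63.3 CPM in mutant lungs, and its log2 fold change of -0.37 (SE 0.07, adjusted p = 0.0293) was the smallest of the 10. *Emp2*, which encodes a tetraspan membrane protein, had 790 and 739 CPM in wild-type and 546 and 618 CPM in mutant lungs (log2 fold change -0.39, SE 0.08, adjusted p = 0.0311). For the transcripts of these surface proteins the mutant lungs retained between 67.1% (*Ager*) and 77.1% (*Pdpn*) of the wild-type mean.

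The transport genes moved by different amounts. *Aqp5*, the water channel of the apical AT1 membrane, had 29.1 and 27.4 CPM in wild-type lungs but 8.56 and 15.3 CPM in mutant lungs. Its log2 fold change of -1.23 (SE 0.18, adjusted p = 0.00897) was the largest of the list. It was also the only one past 1 in size, the minimum used in the study. The study also asked for a DESeq2 adjusted p of at most 0.05, which *Aqp5* did not reach in the Wald test here (0.0531). The 2 mutant lungs also differed most from each other in *Aqp5*. Without mutant lung 1 the log2 fold change of *Aqp5* was -0.89, and without mutant lung 2 it was -1.72. *Clic5*, which encodes a chloride intracellular channel protein that associates with cortical actin, had 568 and 512 CPM in wild-type and 344 and 421 CPM in mutant lungs (log2 fold change -0.50, SE 0.09, adjusted p = 0.0178).

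Of the genes for intracellular, nuclear and secreted proteins, *Akap5* encodes an anchor of protein kinase A at the membrane. It had 656 and 630 CPM in wild-type and 471 and 517 CPM in mutant lungs (log2 fold change -0.38, SE 0.07, adjusted p = 0.0197). *Rtkn2* had 51.3 and 48.5 CPM in wild-type and 31.7 and 32.7 CPM in mutant lungs, so that the spread within each genotype was small beside the difference (log2 fold change -0.63, SE 0.08, adjusted p = 0.00441). *Hopx*, which encodes an atypical homeodomain protein that does not itself bind DNA, had 298 and 306 CPM in wild-type and 199 and 256 CPM in mutant lungs. Its log2 fold change was -0.41 (SE 0.09, adjusted p = 0.0394), the highest adjusted p of the list, and it moved to -0.24 without mutant lung 1. *Spock2*, which encodes the secreted matrix proteoglycan testican-2, had 67.9 and 67.3 CPM in wild-type and 33.8 and 46.8 CPM in mutant lungs. It had the largest change after *Aqp5*, a log2 fold change of -0.74 (SE 0.12, adjusted p = 0.0118), and its wild-type lungs were nearly level while its mutant lungs were not.

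The 2 mutant lungs did not carry the same level of AT1 transcripts. All 10 markers were lower in mutant lung 1 than in mutant lung 2, by 0.05 (*Rtkn2*) to 0.83 (*Aqp5*) on the log2 scale with a median of 0.24, whereas the median over all tested genes was 0.00. Wild-type lung 2 was below wild-type lung 1 for 8 of 10 markers, with log2 differences between -0.15 (*Clic5*) and 0.04 (*Hopx*). Mutant lung 1 and wild-type lung 2 are the lungs with *Ddx3y* and little *Xist*, so within each genotype these differences run with sex, whose part in them cannot be told apart from that of the single lung. A crossed block, which pairs lungs of the same sex across genotypes, left 10 of 10 markers lower (adjusted p at most 0.00704). With it, 320 of all 18763 tested genes were lower. Summed over the 10 markers, the wild-type lungs had 3410 and 3255 CPM and the mutant lungs 2227 and 2607 CPM. These sums are 0.341%, 0.325%, 0.223% and 0.261% of the TMM-corrected library totals. When mutant lung 1 was left out, the median log2 fold change of the markers was -0.38, with *Emp2* at -0.30 and *Akap5* at -0.31. When mutant lung 2 was left out, the median was -0.62. Such a fit on 3 lungs takes the lone lung to vary like the others.

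**Figure D2:**
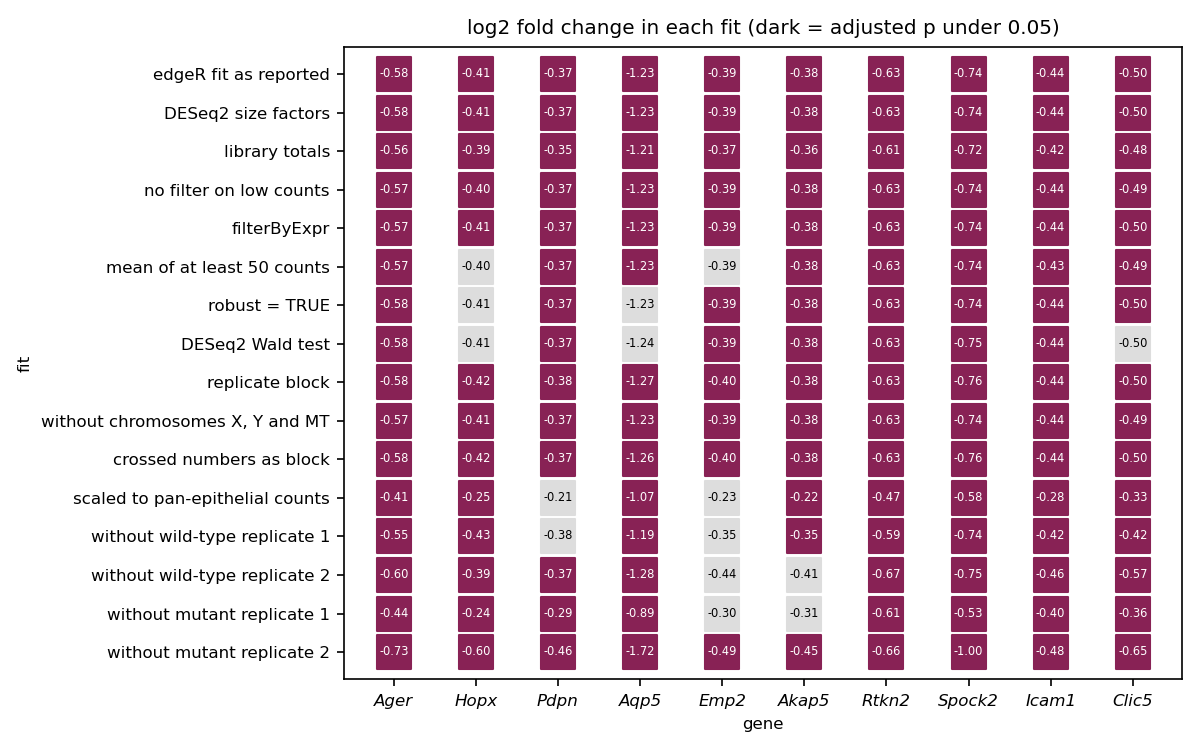
Log2 fold change, mutant over wild-type, of each AT1 marker (columns) in the reported fit and in 15 alternative fits (rows), with dark squares for an adjusted p under 0.05 and grey squares otherwise. All values are negative, and *Ager*, *Rtkn2*, *Spock2* and *Icam1* are dark in every row.

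*Ager*, *Rtkn2*, *Spock2* and *Icam1* passed 0.05 in all 15 alternative fits, *Clic5* in 14, *Pdpn*, *Aqp5* and *Akap5* in 13, *Hopx* in 12 and *Emp2* in 10. The direction was the same in every fit for every marker. With the robust option of glmQLFit, which allows for genes of unusual variance, *Aqp5* (adjusted p = 0.237) and *Hopx* (0.0950) did not pass.

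Per kilobase of exon, the scale on which levels can be compared between genes, *Ager* had the highest level in wild-type lungs (326 ± 7.29 CPM per kb, SD, n = 2), followed by *Hopx* at 199, *Akap5* at 94.3, *Emp2* at 88.5, *Clic5* at 61.5, *Pdpn* at 42.8 and *Icam1* at 37.2 CPM per kb. *Spock2*, *Aqp5* and *Rtkn2* were lowest, at 12.2 and 10.9 CPM per kb and, for *Rtkn2*, 8.75 to 9.26 CPM per kb. No neighbours in this order had overlapping values in the 2 wild-type lungs, although *Akap5* at 92.4 to 96.2 and *Emp2* at 85.5 to 91.4 CPM per kb lay close. The 3 markers of lowest level also had the 3 largest falls, while *Ager*, the highest, came next.

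On GRCm38, *Ager* (ENSMUSG00000015452) lies at chr17:34597862-34600936, *Icam1* (ENSMUSG00000037405) at chr9:21015985-21028817, *Pdpn* (ENSMUSG00000028583) at chr4:143267431-143299564 and *Emp2* (ENSMUSG00000022505) at chr16:10281749-10313968. *Aqp5* (ENSMUSG00000044217) lies at chr15:99590782-99594829 and *Clic5* (ENSMUSG00000023959) at chr17:44188584-44280172. *Akap5* (ENSMUSG00000021057) lies at chr12:76324891-76334153, *Rtkn2* (ENSMUSG00000037846) at chr10:67979570-68059740, *Hopx* (ENSMUSG00000059325) at chr5:77086988-77115121 and *Spock2* (ENSMUSG00000058297) at chr10:60106219-60135198. Each is annotated as protein-coding. The exons of 3 markers overlap a gene on the opposite strand, and use of strand in the counting was not stated. *Hopxos* overlaps 412 bases of *Hopx* exons and had 8.46 to 10.6 CPM in the 4 lungs (log2 fold change 0.01, SE 0.12, adjusted p = 0.977). *Gm16212* overlaps 216 bases of *Rtkn2* exons and had at most 4 reads in a lung. *Gm47079*, not analysed here, overlaps 511 bases of *Icam1* exons, so the *Icam1* count is uncertain. The share of 75-base windows, the read length, that also occur in transcripts of other genes was 22.34% for *Hopx*, 11.08% for *Icam1* and at most 1.25% for the other 8 markers.

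Since the markers moved together, the sequence before their start sites was read from RefSeq on GRCm38.p6. RefSeq had an entry for 9 of the 10 genes and none for *Rtkn2*. *Spock2*, *Ager*, *Clic5* and *Icam1* are shown as the 4 largest falls with at least 200 bases before the start outside annotated exons, and *Hopx* because it shares a motif with *Spock2*. Capitals mark matches, on either strand, to CTCAAG, a core recognised by the lung epithelial factor NKX2-1, and to GGGCGG, the GC box of SP and KLF factors. On the strand shown these matches read as their reverse complements, cttgag and ccgccc.

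Spock2, chr10:60106007-60106218, plus strand: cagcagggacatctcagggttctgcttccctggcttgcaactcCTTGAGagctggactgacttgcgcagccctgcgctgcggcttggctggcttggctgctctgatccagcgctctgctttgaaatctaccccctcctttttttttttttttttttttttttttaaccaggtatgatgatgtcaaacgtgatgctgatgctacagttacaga
Ager, chr17:34597600-34597849, plus strand: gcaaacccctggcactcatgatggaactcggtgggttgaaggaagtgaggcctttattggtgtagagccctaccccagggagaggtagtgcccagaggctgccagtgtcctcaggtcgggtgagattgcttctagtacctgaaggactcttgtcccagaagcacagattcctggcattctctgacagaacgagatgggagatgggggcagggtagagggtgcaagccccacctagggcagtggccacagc
Clic5, chr17:44188322-44188571, plus strand: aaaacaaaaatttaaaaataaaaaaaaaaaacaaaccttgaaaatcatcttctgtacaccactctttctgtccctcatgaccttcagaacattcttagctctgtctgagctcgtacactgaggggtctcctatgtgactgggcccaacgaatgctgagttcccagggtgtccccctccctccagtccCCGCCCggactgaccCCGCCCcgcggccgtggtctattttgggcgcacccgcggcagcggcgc
Icam1, chr9:21015690-21015939, plus strand: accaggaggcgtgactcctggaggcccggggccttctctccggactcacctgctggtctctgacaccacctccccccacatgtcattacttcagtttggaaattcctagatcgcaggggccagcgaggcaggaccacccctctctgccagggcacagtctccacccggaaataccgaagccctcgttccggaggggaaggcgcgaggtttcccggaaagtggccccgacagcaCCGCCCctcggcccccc
Hopx, chr5:77115124-77115373, minus strand: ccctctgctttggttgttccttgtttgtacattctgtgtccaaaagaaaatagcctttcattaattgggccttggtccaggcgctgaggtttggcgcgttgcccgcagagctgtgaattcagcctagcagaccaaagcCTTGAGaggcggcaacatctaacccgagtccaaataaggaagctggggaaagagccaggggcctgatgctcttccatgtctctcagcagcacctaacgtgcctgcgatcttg

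Among the 250 bases before each of 32851 RefSeq starts, CTCAAG occurred in 13.3% and in 2 of the 10 starts of the markers (*Hopx* has 2 starts), those of *Spock2* and of 1 start of *Hopx*. GGGCGG occurred in 32.7% of all starts and in 5 of the 10 starts of the markers, those of *Icam1*, *Akap5*, *Aqp5*, *Emp2* and *Clic5*. GGAATG, the core bound by the TEAD partners of YAP and TAZ, occurred in 12.6% of all starts. CAAGTG, another NKX2-1 core, occurred in 11.6%, and TATAAA, the TATA box, in 12.4%. Each of these occurred in 0 of the 10 starts of the markers. The 10 windows ranged from 43.2% G and C (*Pdpn*) to 78.4% (*Aqp5*), with a median of 52.4% over all starts. For *Aqp5* only the first 4 of the 250 bases lie before its annotated exon, and its GGGCGG match is not among them. Exons of *Hopxos* overlap 1 of the 2 *Hopx* windows. CTCAAG and CAAGTG overlap in their letters CAAG. These matches describe letters within a short window and say nothing of binding.

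Of a wider list of 29 genes expressed in AT1 cells, 7 were lower and 0 higher in the same test, with a median log2 fold change of -0.17. At an unadjusted p under 0.05, 15 of 29 were lower and 0 higher, against 9.02% lower and 7.52% higher among all tested genes, and DESeq2 called 7 lower and 0 higher. The edgeR count was 4 without wild-type lung 1 and 14 without mutant lung 2. *Gprc5a*, an orphan receptor induced by retinoic acid, had 364 and 335 CPM in wild-type and 201 and 260 CPM in mutant lungs (log2 fold change -0.60, SE 0.09, adjusted p = 0.0108), and it did not pass with DESeq2 (adjusted p = 0.0527) or the robust option (0.0576). *Scnn1g*, the gamma subunit of the epithelial sodium channel, had 47.3 and 49.9 CPM in wild-type and 33.3 and 34.1 CPM in mutant lungs (log2 fold change -0.53, SE 0.08, adjusted p = 0.00897), with both mutant lungs clear of both wild-type lungs. *Anxa3*, an annexin, had 251 and 257 CPM in wild-type and 178 and 212 CPM in mutant lungs (log2 fold change -0.38, adjusted p = 0.0199). *Cav1*, the caveolin of AT1 and endothelial cells, had 1144 and 1119 CPM in wild-type and 1064 and 1121 CPM in mutant lungs, which overlap (95% interval of the log2 fold change -0.24 to 0.14). Among 10 regulators of AT1 fate, 0 were called lower or higher by edgeR, with 3 lower and 2 higher at an unadjusted p under 0.05, against the same 9.02% and 7.52%. *Wwtr1*, which encodes TAZ, had 287 and 293 CPM in wild-type and 243 and 258 CPM in mutant lungs (log2 fold change -0.21, SE 0.05, adjusted p = 0.0521). It was the 1 regulator called lower by DESeq2 (adjusted p = 0.0319). It also passed with the robust option (adjusted p = 0.0425) and with the replicate block (0.0140). That block pairs lungs by a shared number only, and the paired lungs differ in sex. *Wwtr1* was not called in every other fit. It did not pass with the crossed block (adjusted p = 0.112) or with pan-epithelial scaling (log2 fold change -0.05, adjusted p = 0.507). With each lung left out, the log2 fold change of *Wwtr1* lay between -0.26 and -0.17. *Tead1*, a DNA-binding partner of TAZ, had 271 and 265 CPM in wild-type and 312 and 289 CPM in mutant lungs (log2 fold change 0.16, SE 0.05, adjusted p = 0.140). It passed with the replicate block (0.0479) but not with the crossed block (0.251). With each lung left out, the log2 fold change of *Tead1* lay between 0.11 and 0.22.

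**Figure D3:**
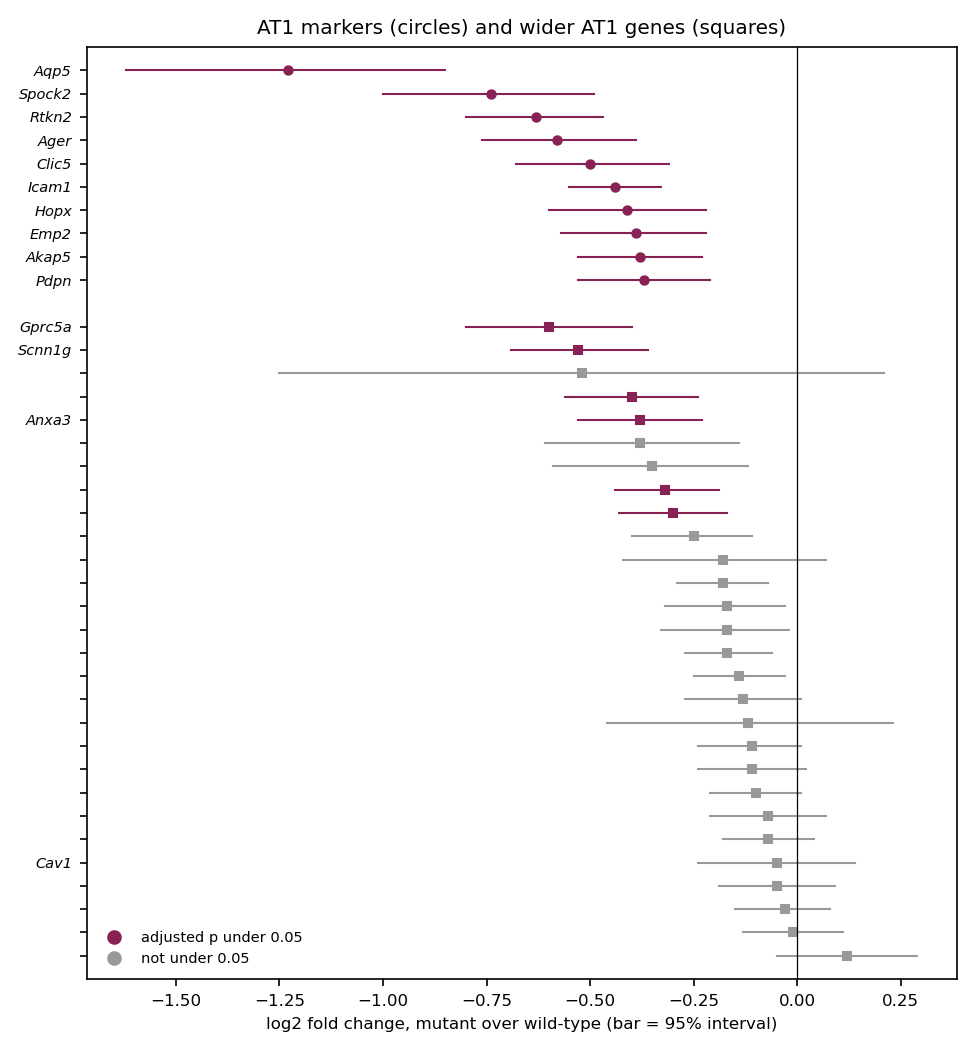
Log2 fold change, mutant over wild-type (horizontal axis), with its 95% interval for the 10 AT1 markers (circles) and the wider AT1 genes (squares, 1 gene not shown, and names given for genes described in the text), dark where the adjusted p was under 0.05. The markers lie between -1.23 and -0.37, and the wider genes between -0.60 and 0.12.

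Some other epithelial transcripts were lower in the same lungs. Among all tested genes, 1.34% were called lower and 0.298% higher. At an unadjusted p under 0.05, 6 of 13 pan-epithelial and 11 of 12 AT2 genes were lower and 0 higher. The shares over all tested genes at that threshold were 9.02% lower and 7.52% higher. Of 13 pan-epithelial genes 5 were lower and 0 higher (median log2 fold change -0.11), namely *Krt8* (-0.33), *Cdh1* (-0.30), *Krt19* (-0.35), *Spint1* (-0.38) and *Rab25* (-0.37), the last named after its values were seen. *Krt8* and *Krt19* are keratins of simple epithelia and *Cdh1* encodes E-cadherin. *Cdh1* and *Spint1* did not pass without wild-type lung 1 (adjusted p = 0.107 and 0.0765). *Nkx2-1*, the lung epithelial transcription factor, had 434 and 455 CPM in wild-type and 455 and 448 CPM in mutant lungs, and *Epcam*, an epithelial adhesion molecule, had 144 and 152 CPM and 148 and 139 CPM, with overlap between the genotypes in both. Of 12 AT2 genes 9 were lower and 0 higher (median -0.42), among them the surfactant protein genes *Sftpd* (-1.06, adjusted p = 0.00441), *Sftpa1* (-0.57, adjusted p = 0.00592) and *Sftpb* (-0.48, adjusted p = 0.00961) and the mucin *Muc1* (-0.37, adjusted p = 0.00766). *Sftpb* did not pass without wild-type lung 2 (adjusted p = 0.0633). As for the AT1 markers, most AT2 genes, 9 of 12, were lower in mutant lung 1 than in mutant lung 2 (median log2 difference 0.15). So were 6 of the 7 leukocyte genes listed below (0.22), and the mesothelial median was 0.16, so the gap was not confined to alveolar genes. Medians of this difference were -0.17 for cardiac muscle, -0.14 for lymphatic endothelium and -0.11 for distal tip progenitor genes. Over all tested genes the median was 0.00.

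To set the AT1 markers beside the epithelium as a whole, their summed CPM was divided by that of the pan-epithelial genes. This ratio was 1.72 and 1.64 in wild-type lungs and 1.28 and 1.45 in mutant lungs, so the mutant mean was 81.2% of wild-type and the genotypes did not overlap. With the counts scaled to the pan-epithelial genes in place of TMM, 8 of 10 markers were lower, against 0.917% of all genes, with log2 fold changes between -1.07 (*Aqp5*) and -0.21 (*Pdpn*) and a median of -0.30, while the median over all tested genes was 0.17. On that scale *Pdpn* (adjusted p = 0.0622) and *Emp2* (adjusted p = 0.0546) did not pass. The ratio of summed AT1 markers to summed AT2 genes was 0.365 and 0.365 in wild-type and 0.355 and 0.352 in mutant lungs, a mutant mean of 96.9% of wild-type. With geometric means, which do not let the most abundant genes such as *Sftpc* dominate, it was 0.736 and 0.746 in wild-type and 0.641 and 0.702 in mutant lungs. An exact permutation test of 2 against 2 lungs cannot go below p = 0.333 (two-sided), the value it gave for each of these ratios.

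**Figure D4:**
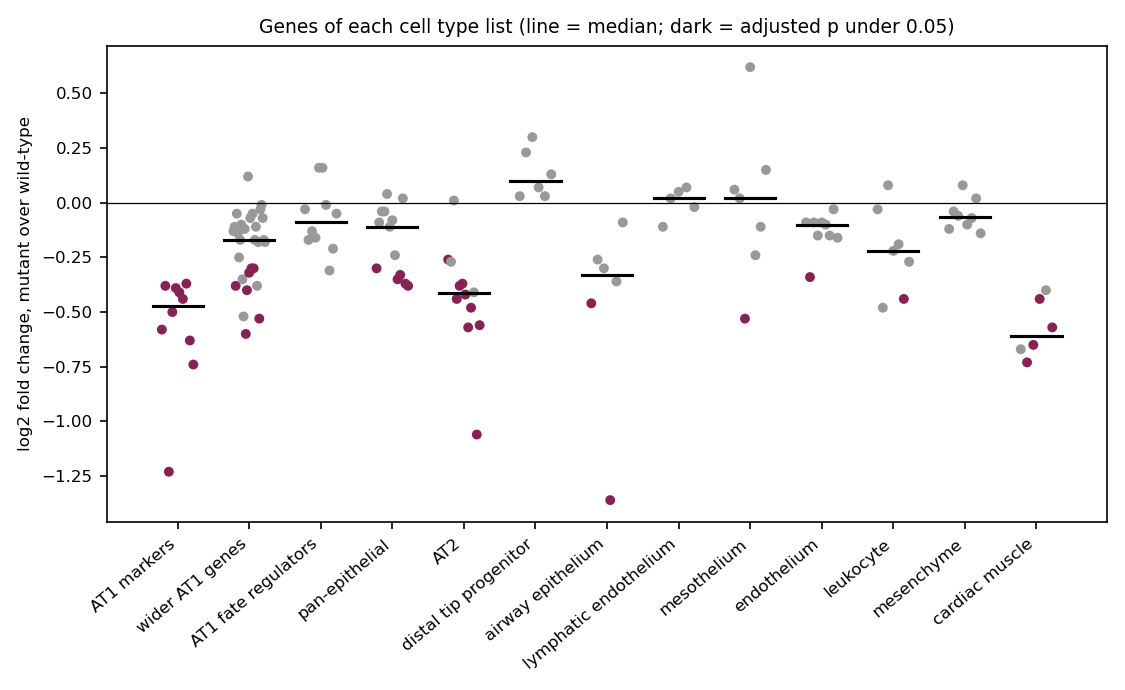
Log2 fold change, mutant over wild-type (vertical axis), of the tested genes of 13 cell type lists, with a line at each median and dark points for an adjusted p under 0.05. The AT1 markers (median -0.47) lie beside the AT2 genes (-0.42) and below the pan-epithelial genes (-0.11). The cardiac muscle genes (-0.61) lie lowest, and the airway (-0.33) and leukocyte (-0.22) genes lie between. The medians of mesenchyme (-0.06) and lymphatic endothelium (0.02) lie nearer 0, and that of endothelium (-0.10) lies beside the pan-epithelial median.

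Lists for the other cell types that express some of the markers were measured in the same way, and their part in the change of the markers was not tested. Of 5 lymphatic endothelial genes, whose cells also express *Pdpn*, 0 were called by edgeR or DESeq2 and 0 had an unadjusted p under 0.05 (median log2 fold change 0.02, summed level 238 to 260 CPM in wild-type and 253 to 258 CPM in mutant lungs). Of 7 mesothelial genes, 1 was lower, *Msln* (mesothelin), at 207 and 224 CPM in wild-type and 129 and 169 CPM in mutant lungs (log2 fold change -0.53, adjusted p = 0.0196), and the median was 0.02 (summed level 343 to 376 and 258 to 309 CPM). Of 9 endothelial genes 1 was lower, the tight junction gene *Cldn5* (log2 fold change -0.34, adjusted p = 0.0379), with a median of -0.10 (summed level 1977 to 1978 and 1795 to 1825 CPM). Of 7 leukocyte genes 1 was lower, the lysozyme *Lyz2* (log2 fold change -0.44, adjusted p = 0.0293), which AT2 cells also express, with a median of -0.22 (summed level 251 to 271 and 185 to 223 CPM). Of 6 airway genes 2 were lower, the club cell genes *Scgb1a1* (-1.36, adjusted p = 0.00897) and *Cyp2f2* (-0.46, adjusted p = 0.00897). The airway median was -0.33 (summed level 729 to 921 and 578 to 666 CPM). Lower at an unadjusted p under 0.05 were 5 of 9 endothelial, 4 of 7 leukocyte and 5 of 6 airway genes. For mesothelium it was 2 of 7, and 0 were higher in any of these lists. Over all tested genes the shares were 9.02% lower and 7.52% higher. All 9 endothelial log2 fold changes were negative. With DESeq2, *Msln* (adjusted p = 0.132), *Lyz2* (0.164) and *Scgb1a1* (0.0529) did not pass, and without wild-type lung 2, *Cldn5* (0.0936) did not.

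Of the 6 cardiac muscle genes tested, in whose tissue *Hopx* is also expressed, 4 were lower, against 1.34% of all tested genes. These were *Myh6* (-0.73), *Myl7* (-0.65), *Ryr2* (-0.44) and *Tnnt2* (-0.57). The median over the 6 was -0.61, with a summed level of 167 to 207 CPM in wild-type and 117 to 128 CPM in mutant lungs. *Nppa* stayed under 0.1 CPM in every lung. *Tnnt2* did not pass without wild-type lung 2 (adjusted p = 0.189). Of 6 distal tip progenitor genes 0 were called by either tool, with 0 lower and 1 higher at an unadjusted p under 0.05 (7.52% of all tested genes were higher). Their median was 0.10, and *Id2*, a progenitor regulator, had 164 and 161 CPM in wild-type and 161 and 180 CPM in mutant lungs. Of 8 mesenchymal genes 0 were called by either tool, with 1 lower and 0 higher at an unadjusted p under 0.05, a lower share near the 9.02% of all tested genes, and *Col1a1* had 817 and 861 CPM in wild-type and 837 and 800 CPM in mutant lungs.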

How the data were processed

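RNA-seq was performed on the left lung lobes of 2 wild-type and 2 Myh10L458R/L458R embryos at E17. The authors deposited raw counts of reads per Ensembl gene, made by sequencing stranded mRNA libraries (1 read of 75 bases per fragment), trimming with Reaper, aligning to mm10 (GRCm38) with STAR 2.4.0a, and counting on exons with featureCounts 1.5.1, leaving out reads on several genes or regions. Replicates were not pooled, and counts within a genotype differed beyond sampling noise (chi-square over its degrees of freedom 7.30 and 12.9). These values include the X and Y genes, such as *Xist*, and the 2 lungs of each genotype differed in sex. The labels do not tie the lungs to litters.

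From these counts, 18763 genes averaging 5 counts or more were tested with edgeR 4.0.16 in R 4.3.3 (TMM, glmQLFit, glmQLFTest) with Benjamini-Hochberg adjustment over all of them. Standard errors are the log2 fold change over the square root of F. Alternatives were DESeq2 1.42.0, other scalings, filters and blocks, and leaving out each lung. The test was checked on simulated counts. The members and lists were chosen with earlier results of these data known, and so carry no test as sets. All members are named, with up to 4 called genes of each further list (up to 2 of the highest count where none was called). *Cav1*, *Rab25*, *Nkx2-1*, *Epcam*, *Nppa* and the antisense genes were named after their values were seen. A further gene is counted in its list but not reported here. Exon lengths and overlaps are from GENCODE M21. Depth was 19116971 to 32055306 counts a lung, and there were 2 lungs per genotype.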

Additional observations from a re-analysis of the deposited data

How the results depend on the processing

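Only 2 lungs per genotype were sequenced, so a single lung can decide a call. Of 600 values of named genes under 15 alternative fits, 545 kept their direction and their side of the threshold, 34 kept the direction and no longer passed, 12 newly passed and 9 changed sign, and no AT1 marker changed sign. The marker count was 10 in the reported fit, between 8 and 10 when single lungs were left out, 8 with the robust option, with a minimum mean of 50 counts and with pan-epithelial scaling, and 7 with DESeq2. Without wild-type lung 1, *Pdpn* (adjusted p = 0.0538) and *Emp2* (0.0664) did not pass, and without wild-type lung 2, *Akap5* (0.0882) and *Emp2* (0.138) did not. The cause was not tested.

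The median log2 fold change of the markers moved to -0.30 with pan-epithelial scaling and lay between -0.62 and -0.38 with each lung left out. That scaling, like the crossed block, was chosen after seeing the data, and over all genes it gave a median of 0.17. On it *Tead1* (0.33), *Id2* (0.24) and *Myh10* (0.23) newly passed. The log2 ratio of AT1 markers to pan-epithelial genes moved from -0.30 to -0.40 with geometric means, and lay between -0.40 and -0.21 with each lung left out. The log2 ratio of AT1 markers to AT2 genes moved from -0.05 to -0.14 with geometric means and to -0.07 without *Emp2*. The count of lower wider AT1 genes moved from 7 to 12 with no filter on low counts and to 4 with pan-epithelial scaling (1 higher), and lay between 4 (without wild-type lung 1) and 14 (without mutant lung 2) with each lung left out.

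Over all tested genes, 252 lower and 56 higher calls became 688 and 474 with no filter, 473 and 223 at an adjusted p under 0.1, 339 and 135 with the robust option, 234 and 112 with library totals, 259 and 92 with DESeq2, 289 and 90 without chromosomes X, Y and MT, 185 and 36 with a minimum mean of 50 counts, and 172 and 3480 with pan-epithelial scaling. They lay between 175 and 875 lower and between 31 and 768 higher with each lung left out, the highest without mutant lung 2. Of the calls 81.8% were lower with TMM, 67.6% with library totals and 4.71% with pan-epithelial scaling.

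The replicate number gave the lungs only a shared number. Deviations of same-numbered lungs had a correlation across genes of -0.297, or 0.0114 without chromosomes X, Y and MT, where genes are not independent replicates. With the replicate block, 466 genes were lower and 244 higher, and 10 of 10 markers were lower (adjusted p 0.00196 to 0.0214). With the numbers crossed, which pairs lungs of the same sex, 320 genes were lower and 95 higher, and 10 of 10 markers were lower.

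The sign changes were in values close to 0. With pan-epithelial scaling the log2 fold change was 0.10 for *Col1a2* and 0.13 for *Col1a1*. With each lung left out it lay between -0.07 and 0.00 for *Col1a1*, -0.01 and 0.15 for *Id2*, -0.03 and 0.09 for *Bmp4*, -0.05 and 0.14 for *Lyve1* and -0.08 and 0.11 for *Flt4*.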
